A study of Mus musculus with 29 samples.

Results

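Hindlimb muscle of calorie-restricted mice was compared with hindlimb muscle of control mice, with the 3 restricted diets (soy, fish and lard) pooled. Libraries were taken by the tissue and diet in the labels, which gave 14 of the 29 libraries of the series: 4 control, 3 soy, 3 fish and 4 lard muscles. All mice were male C57BL/6, an inbred laboratory strain, bought at 14 weeks of age and assigned to a diet when 4 months old. Those of the control group received 95% of the intake measured under free feeding (13.6 kcal per day), so they too ate slightly less than they would have. The 10 restricted mice received 60% (8.6 kcal per day). The sources used here give neither the fat of the control diet nor the age at death. Each library came from a different mouse and is named by its mouse number. The labels also give a library number, and numbers 42, 43 and 44 each hold a control, a soy, a fish and a lard muscle. Number 45 holds a control and a lard muscle. The main fit does not include this number. The muscle of fish mouse 1125 was discarded by the authors and is not analysed here.

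Calorie restriction lowers insulin and growth factor signals and raises glucocorticoids, and skeletal muscle is a main site of glucose disposal and the largest store of protein in the body. Restricted mice usually eat their ration soon after it is given and then fast until the next one, so their tissues alternate between storing fuel and burning fat and amino acids. Fatty acid synthesis, insulin and glucocorticoid signalling, the circadian clock and the extracellular matrix are known to respond to feeding in muscle. Whole hindlimb muscle also holds blood, immune, fat, connective tissue and vessel cells. In such bulk samples fewer cells of a type and less RNA per cell cannot be told apart.

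Exon reads numbered 12580798 to 27106865 per library. Skeletal muscle markers summed to 101065 to 226876 CPM, with all 10 markers detected, and hepatocyte markers summed to 183 to 603 CPM. CPM are exon reads per 1e+06 reads of the tested genes, with each library total corrected by its TMM scaling factor. Control muscles 1071 and 1120 stood apart from the other 12 libraries. On the first principal component, which held 31.6% of the variance, they lay at -59.9 and -68.1 and the others between -10.6 and 21.6. Neutrophil markers (18 genes) summed to 354 and 1288 CPM in these 2 libraries and to 1.64 to 12.2 CPM in the other 12, and 6 of the 18 had no read in control muscles 1095 and 1121. Erythroid markers (15 genes) summed to 2133 and 7274 CPM against 213 to 935 CPM, and bone and cartilage markers (19 genes) to 89.7 and 239 CPM against 26.2 to 71.1 CPM. Muscle transcripts differed there too, in both directions. Ttn had 6027 and 3798 CPM in control muscles 1071 and 1120 against 8880 to 14020 CPM, and Neb 3449 and 1950 against 4861 to 8524 CPM. Acta1 had 37026 and 25996 CPM against 13482 to 23880 CPM, and Des 5574 and 3732 against 1906 to 3239 CPM. The cause was not tested. These 2 libraries also had the lowest share of uniquely assigned exon reads, 89.1% and 89.0%, against 90.4% to 91.4%. Results are therefore given with all 4 controls and with control muscles 1095 and 1121 alone.

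**Figure D1:**
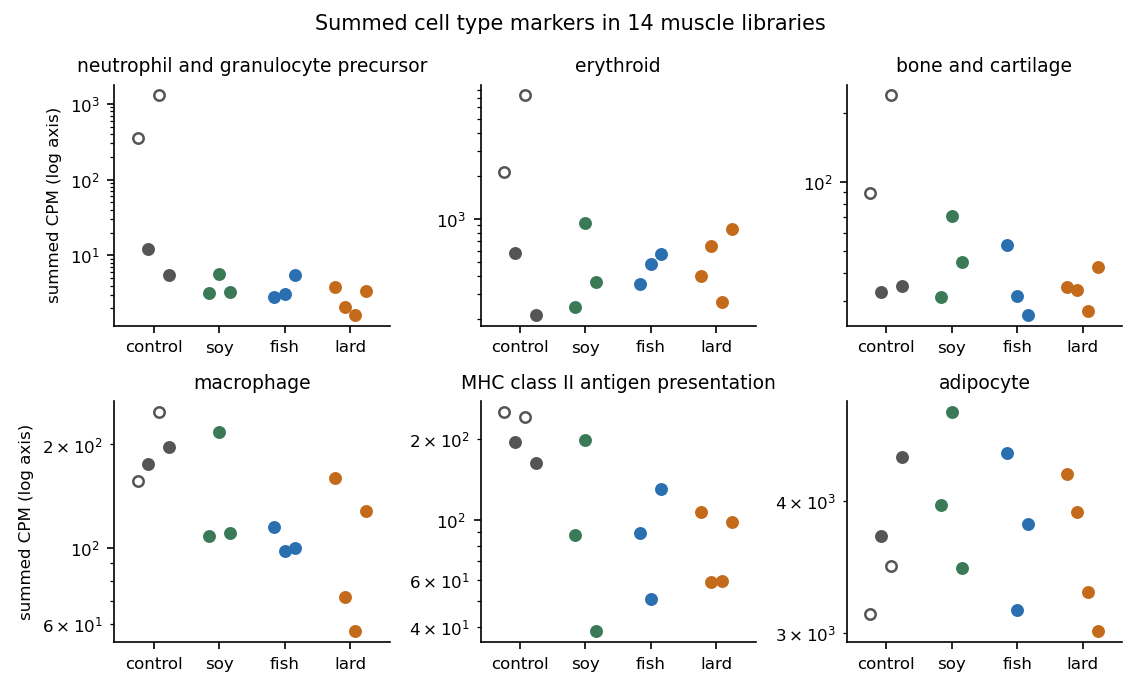
Summed CPM of 6 marker lists (log axes) in each of the 14 muscle libraries by diet, 1 point per library, with control muscles 1071 and 1120 as open circles. The open circles lie above all other libraries for neutrophil, erythroid, and bone and cartilage markers, whereas adipocyte markers range over 3129 to 4398 CPM in control and 3010 to 4851 CPM in restricted muscle. Car3 is the largest part of the adipocyte sum in every library.

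With all 4 controls, 389 of 13104 genes changed under restriction by edgeR's quasi-likelihood test at a Benjamini-Hochberg adjusted p under 0.05, which is 2.97% of the genes tested. Of these, 120 were higher (0.916% of genes) and 269 lower (2.05%). At an unadjusted p under 0.05 there were 3415 genes (26.1%), 1413 of them higher (10.8%) and 2002 lower (15.3%). Without control muscles 1071 and 1120, 2 of 13207 genes passed (0.0151%), Igfn1 and Mest, both lower. At an unadjusted p under 0.05 there were then 1255 genes (9.5%), 584 higher (4.42%) and 671 lower (5.08%).

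The number of genes called also moved by more than 1.5 times when any 1 library was left out. It was 3 without control muscle 1071, 22 without control muscle 1120, 1782 without control muscle 1095 and 1795 without control muscle 1121. Among the restricted libraries it was 178, 778 and 116 without soy muscles 1065, 1073 and 1141, and 226, 59 and 171 without fish muscles 1067, 1123 and 1124. It was 69, 26, 16 and 99 without lard muscles 1100, 1101, 1102 and 1130.

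Direction was steadier than the call. All 120 higher genes stayed higher without control muscles 1071 and 1120, with a median log2 fold change of 0.43 in place of 0.63, and all 120 had an unadjusted p under 0.05. Of the 269 lower genes, 258 were tested in that fit and 249 stayed lower, with a median of -0.52 in place of -0.998 and 155 at an unadjusted p under 0.05. The median over all genes tested was -0.02 with all controls and 0.01 without these 2. The fits share 12 libraries, so the second is no independent check of the first. All 10 restricted libraries lay beyond control muscles 1095 and 1121, in the direction of the call, for 85 higher and 87 lower called genes. Over all genes tested, 3.26% had all 10 above and 2.99% all 10 below those 2 controls. Against all 4 controls 154 of the called genes did not overlap, and over all genes 2.07% did not.

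**Figure D2:**
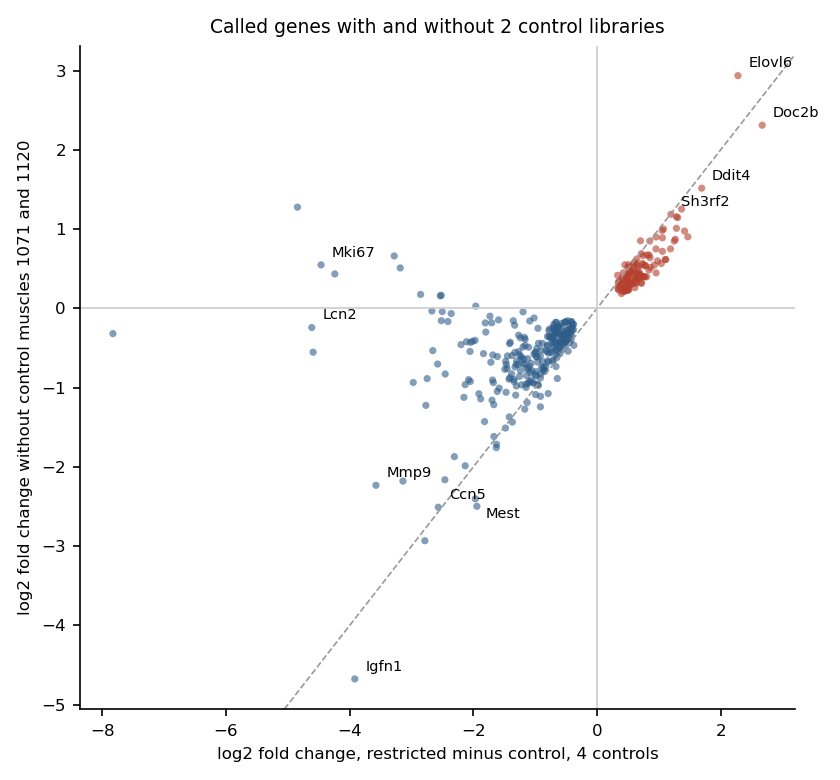
Log2 fold change (restricted minus control) of the 378 called genes tested in both fits, with all 4 controls on the x axis and without control muscles 1071 and 1120 on the y axis, 1 point per gene, red for higher and blue for lower genes, with a dashed line of equal values. The higher genes all remain above 0, whereas 9 of the lower genes, Mki67 among them, cross 0.

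Igfn1 and Mest were the genes that passed both with and without control muscles 1071 and 1120, and Igfn1 showed the larger difference. With the library number as a replicate block in the edgeR fit, neither passed without those 2 controls (adjusted p = 0.362 for both). Igfn1 encodes a muscle protein with immunoglobulin and fibronectin type III domains found near the Z-disc. Mest, also called Peg1, is an imprinted gene expressed from the paternal allele and is a known marker of expanding fat tissue. The bases before their starts are shown because these 2 genes held in both fits, with those of Nr1d1, a core clock gene described with the clock genes. Each is the 200 bases upstream of a RefSeq start on GRCm38.p6, 5′ to 3′ on the gene's strand and free of annotated exons, with motif matches in capitals. The windows are chr1:136006343-136006542 (minus strand), chr6:30737850-30738049 (plus strand, 1 of 3 starts listed) and chr11:98775378-98775577 (minus strand).
Igfn1: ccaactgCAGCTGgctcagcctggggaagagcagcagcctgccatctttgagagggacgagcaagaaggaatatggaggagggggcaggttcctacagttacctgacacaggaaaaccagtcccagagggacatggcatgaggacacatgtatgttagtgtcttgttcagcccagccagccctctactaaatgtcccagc
Mest: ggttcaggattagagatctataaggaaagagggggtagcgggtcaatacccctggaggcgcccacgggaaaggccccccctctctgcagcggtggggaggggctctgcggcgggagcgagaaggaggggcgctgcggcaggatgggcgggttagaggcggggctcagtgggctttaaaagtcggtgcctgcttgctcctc
Nr1d1: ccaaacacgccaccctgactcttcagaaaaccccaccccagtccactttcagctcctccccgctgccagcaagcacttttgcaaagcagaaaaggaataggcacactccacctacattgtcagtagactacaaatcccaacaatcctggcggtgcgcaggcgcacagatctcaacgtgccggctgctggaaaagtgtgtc

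Both strands were searched for the clock E-box CACGTG, the myogenic E-box CAGCTG, the nuclear receptor half-site AGGTCA, the glucocorticoid receptor half-site TGTTCT, the FOXO site GTAAACA and the TATA box TATAAA. One match was found, CAGCTG in the Igfn1 window, with its first base 193 bases before the start. Of 32851 RefSeq windows of the same length, 10.9% held CAGCTG, 5.3% CACGTG, 11.4% AGGTCA, 12.9% TGTTCT, 2.5% GTAAACA and 9.96% TATAAA.

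Igfn1 (chr1:135953578-136006342 on GRCm38) had 20.9, 71.6, 47.9 and 304 CPM in control muscles 1071, 1095, 1120 and 1121. It had 2.55, 7.01 and 4.67 CPM in the soy libraries, 7.004, 7.42 and 2.47 in the fish libraries and 12.5, 6.72, 15.5 and 14.7 in the lard libraries. Every restricted muscle lay below every control, and the controls themselves spread widely, with control muscle 1121 the highest. Igfn1 fell by 3.92 on the log2 scale (SE 0.50, adjusted p = 0.00877) with all controls. Without control muscles 1071 and 1120 it fell by 4.67 (SE 0.40, adjusted p = 0.00102). When control muscle 1121 was left out of that fit too, the log2 fold change was -3.28 (adjusted p = 0.0397), with the lone control assumed to vary like the other groups. By diet the log2 fold change with all controls was -4.54 for soy, -4.29 for fish and -3.17 for lard, and a test among the 3 fats gave an unadjusted p of 0.155. Per length, its mean was 11.8 RPKM (read counts scaled for exon length and depth) in control and 0.838 RPKM in restricted muscle.

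Mest (chr6:30723547-30748455) had 10.9, 8.74, 2.79 and 19.8 CPM in control muscles 1071, 1095, 1120 and 1121, and 1.36 to 3.95 CPM, median 2.61, in restricted muscle. Control muscle 1120 lay within the restricted range and the other 3 controls above it. Mest fell by 1.97 on the log2 scale (SE 0.32, adjusted p = 0.0245) with all controls and fell by 2.402 (SE 0.25, adjusted p = 0.00441) without control muscles 1071 and 1120. It did not pass without control muscle 1121 as well, at -1.70 and an adjusted p of 0.162. Its exons overlap Copg2, a vesicle coat gene on the opposite strand, over 23.1% of their bases, and the sources used here do not say whether reads were counted by strand. Copg2 had 18.4 to 24.3 CPM in control and 14.4 to 24.5 CPM in restricted muscle (log2 fold change -0.13, adjusted p = 0.4202). Adipocyte markers, whose summed range is given above, overlapped between the groups. Car3 was the largest part of that sum in every library, at 1751 to 2658 CPM in control and 2109 to 3083 CPM in restricted muscle. Adipoq ranged over 25.5 to 86.4 and 8.33 to 118 CPM, and Lep over 5.25 to 78.3 and 1.94 to 27.9 CPM. The near-flat sum therefore does not show that fat content was alike.

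Of the other lower genes with the smallest p, several encode secreted or cell surface proteins, and they were chosen among called genes whose restricted libraries do not overlap control muscles 1095 and 1121, so that nothing is read from that separation. Ccn5 (chr2:163820861-163833146), a matricellular protein, had 15.7, 5.595, 6.31 and 14.7 CPM in the 4 controls and 0.898 to 3.77 CPM in restricted muscle. It fell by 2.57 on the log2 scale (SE 0.30, adjusted p = 0.00791), and the value without control muscles 1071 and 1120 was -2.51 (adjusted p = 0.0518). The highest restricted value, in soy muscle 1073, was below the lowest control. Ighg2c, an immunoglobulin heavy chain made by B lineage cells, had 6.296, 3.99, 5.84 and 11.01 CPM in control and 0.232 to 2.55 CPM in restricted muscle (log2 fold change -2.78, adjusted p = 0.00877; -2.93 and 0.0851 without the 2 controls). Mmp9, a gelatinase abundant in neutrophils, had 15.2, 9.93, 39.7 and 3.56 CPM in control and 0.252 to 2.77 CPM in restricted muscle, and fell by 3.57 (adjusted p = 0.01204). Its 2 highest libraries were control muscles 1120 and 1071, which also held the neutrophil markers, and without them its value was -2.23 (adjusted p = 0.255).

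Chrna10, a nicotinic receptor subunit, had 17.7, 9.79, 19.3 and 13.4 CPM in control and 6.51 to 8.76 CPM in restricted muscle, and fell by 0.98 on the log2 scale (adjusted p = 0.01204). Its exons overlap Art1, a muscle ADP-ribosyltransferase on the opposite strand, over 39.0% of their bases, and Art1 itself had a log2 fold change of -0.22 (adjusted p = 0.246). Chia1, an acidic chitinase, had 3.74, 3.29, 4.72 and 3.09 CPM in control. It had 1.88, 2.26 and 1.58 CPM in the soy, 0.914, 0.535 and 0.449 in the fish and 2.24, 2.66, 2.33 and 1.996 in the lard libraries, so that the fish libraries were the lowest. Chia1 fell by 1.31 over all restricted muscles (adjusted p = 0.01204), and the test among fats gave an unadjusted p of 6.5e-05, which did not pass over all genes. The transcript 1700001O22Rik, of unknown function, fell by 2.46 (adjusted p = 0.01204). Without control muscles 1071 and 1120 the log2 fold changes of Chrna10, Chia1 and 1700001O22Rik were -0.61, -1.09 and -2.16, and none passed after adjustment.

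The higher genes were chosen in the same way and include signalling, vesicle and mitochondrial proteins. Sh3rf2, a scaffold protein that opposes apoptosis, had 22.2, 29.4, 30.9 and 24.6 CPM in the 4 controls and 32.9 to 90.3 CPM, median 60.3, in restricted muscle. The lowest restricted library, fish muscle 1124, was just above the highest control. Sh3rf2 rose by 1.197 on the log2 scale (SE 0.16, adjusted p = 0.01204), and the value without control muscles 1071 and 1120 was 1.19 (adjusted p = 0.136). Pla2g4e, an enzyme that makes precursors of N-acylethanolamines, had 23.5, 32.5, 26.2 and 23.6 CPM in control and 37.9 to 50.8 CPM in restricted muscle, and rose by 0.75 (SE 0.11, adjusted p = 0.01204). Doc2b, a calcium sensor of vesicle fusion that takes part in insulin-stimulated glucose uptake, had 0.208, 0.2798, 0.465 and 0.9396 CPM in control and 1.01 to 6.59 CPM in restricted muscle. It rose by 2.67 (SE 0.46, adjusted p = 0.02697) from a low level. Neither gene overlapped between the groups, and without the 2 controls their values were 0.67 and 2.31 (adjusted p = 0.186 and 0.255).

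Adhfe1 is a mitochondrial enzyme that oxidizes gamma-hydroxybutyrate. It had 21.8 to 35.04 CPM in control and 41.2 to 62.6 CPM in restricted muscle and rose by 0.74 on the log2 scale (adjusted p = 0.02902). Klhl33, a kelch family protein, rose by 0.86, the zinc finger gene Zc3h6 by 0.84 and Gramd1b, a sterol transfer protein, by 0.96 (adjusted p = 0.0309, 0.0309 and 0.03197). None of these 4 overlapped between the groups. Without control muscles 1071 and 1120 the values of Adhfe1, Klhl33, Zc3h6 and Gramd1b were 0.57, 0.64, 0.67 and 0.90, and none passed after adjustment. Only 73.8% of the reads of Adhfe1 and 69.8% of those of Zc3h6 were unique, so their levels are uncertain.

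**Figure D3:**
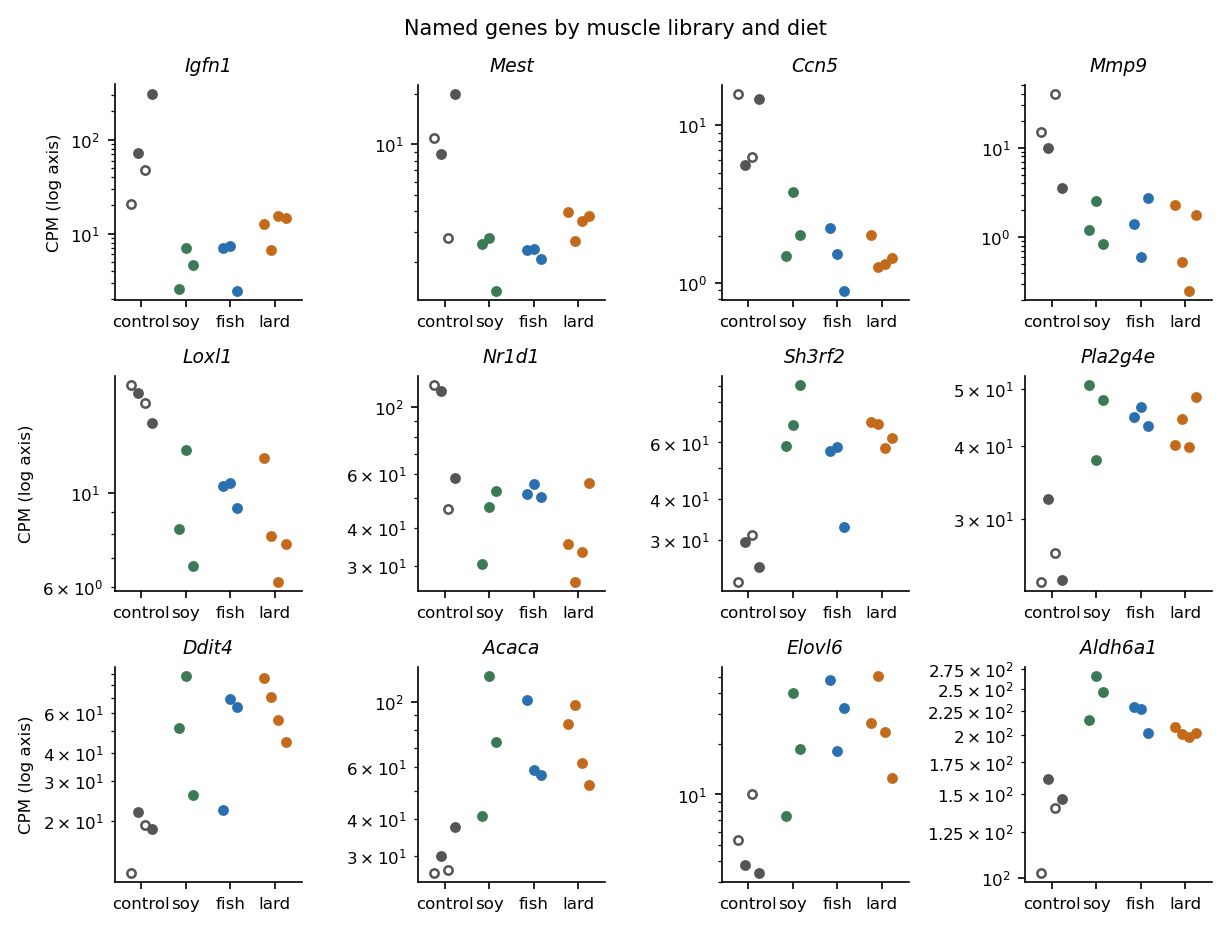
CPM (log axes) of 12 genes in the 14 muscle libraries by diet, 1 point per library, with control muscles 1071 and 1120 as open circles. Igfn1, Ccn5, Mmp9 and Loxl1 are lower and Sh3rf2, Pla2g4e, Ddit4, Acaca and Aldh6a1 higher in all 10 restricted libraries than in all 4 controls, and Mest, Nr1d1 and Elovl6 overlap.

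By edgeR no gene passed in soy, fish and lard each against the 4 controls, which all 3 contrasts share. It called 0 genes for soy, 1 for fish (Chia1, log2 fold change -2.52, adjusted p = 0.00655) and 0 for lard, with 2285, 2407 and 2263 genes at an unadjusted p under 0.05. Limma-voom called 0, 1 and 0 genes and none shared. DESeq2's Wald test called 242, 395 and 318 genes, of which 58 were shared (36 higher and 22 lower). At an unadjusted p under 0.05 by edgeR, 902 genes (6.88%) had one direction in all 3 diets, 404 higher and 498 lower. They held 118 of the 120 higher and 238 of the 269 lower called genes, but the pooled call uses the same libraries.

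The shared count was 0 with any 1 library left out except control muscle 1095. Without that library, 5 genes were shared by edgeR: Lmbr1, Slc25a25, Sepsecs and Pla2g4e higher and Chrna10 lower, named after their values were seen. A test of a difference among the 3 fats called 0 genes by edgeR and by limma-voom, with 406 genes (3.1%) at an unadjusted p under 0.05, of which 18 were among the 389. Without control muscles 1071 and 1120, edgeR called Igfn1 and Mest for soy, these 2 and Chia1 for fish, and no gene for lard. DESeq2 then called 93, 80 and 28 genes, and limma-voom 0 in each diet.

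No gene passed pooled, in each diet and without control muscles 1071 and 1120 by edgeR or limma-voom. DESeq2's Wald test called 1228 genes pooled (9.37%) and 79 without the 2 controls (0.598%), and 23 genes met all conditions, 13 higher and 10 lower. These 23 were picked after their values were seen. By edgeR 22 of them passed with all controls (2.97% of all genes did), the exception being Ewsr1 (adjusted p = 0.05398). Without the 2 controls 2 passed (0.0151% of all genes), and all 23 had an unadjusted p under 0.05 (9.5% of all genes). The selection used the same counts and contrasts, so these edgeR counts are no independent check and nothing is drawn from them. The lower genes were Igfn1, Mest, Ccn5, Ighg2c, 1700001O22Rik, Chrna10, Itgb5, Panx1, Htra1 and Tpx2. The higher genes were Sh3rf2, Pla2g4e, Doc2b, Aldh6a1, Adhfe1, Slc25a25, Gramd1b, Pfas, Gucd1, Rbm3, Srsf5, Hnrnpa3 and Ewsr1.

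Several of these have known roles. Slc25a25, a mitochondrial carrier of ATP-Mg and phosphate, had 27.3, 83.3, 21.3 and 56.4 CPM in the 4 controls and 92.5 to 152 CPM in restricted muscle, with control muscles 1071 and 1120 the lowest. It rose by 1.47 on the log2 scale (adjusted p = 0.0354), and its value without those 2 was 0.90. Rbm3, Srsf5, Hnrnpa3 and Ewsr1 encode RNA-binding proteins, Rbm3 being known for induction by cold. Rbm3 had 98.9, 109, 101 and 98.9 CPM in control and 124 to 206 CPM in restricted muscle (log2 fold change 0.61, adjusted p = 0.0354). Its controls lay close together and below every restricted library, but 26.7% of its reads were unique, and 24.7% of those of Hnrnpa3, so copies elsewhere may share them. Pfas, an enzyme of purine synthesis, rose by 0.62 (adjusted p = 0.0344) and was at 0.38 without control muscles 1071 and 1120. Among the lower genes, the integrin subunit Itgb5 had 101 to 138 CPM in control and 68.3 to 94.1 CPM in restricted muscle, and the channel protein Panx1 5.101 to 8.95 and 2.95 to 4.62 CPM. Itgb5 fell by 0.58 and Panx1 by 0.999 (adjusted p = 0.0245 and 0.0145). Htra1, a secreted serine protease, fell by 1.15 (adjusted p = 0.0245), with 52.4% of its reads unique.

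**Figure D4:**
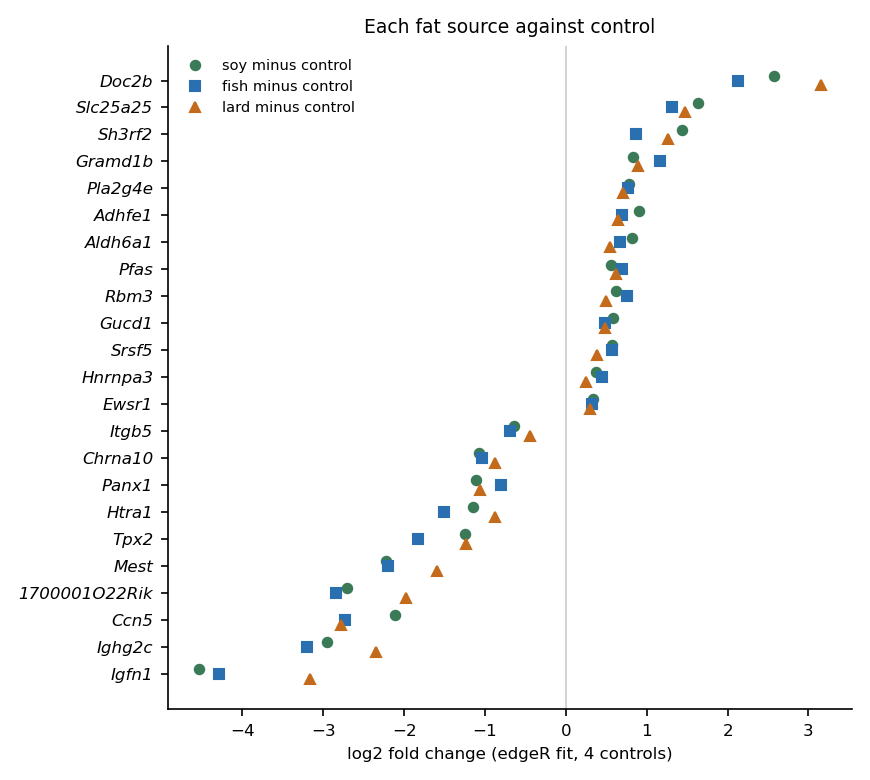
Log2 fold change by edgeR in soy, fish and lard muscle, each against the same 4 controls, for the 23 genes that met all conditions by DESeq2's Wald test. Each gene has the same sign in all 3 diets, which its selection requires.

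Of 26 genes of fatty acid and triglyceride synthesis, 2 rose and 0 fell, against 0.916% and 2.05% of all genes, and the list's median log2 fold change was 0.16 with all controls and 0.30 without control muscles 1071 and 1120. Acaca, the carboxylase that makes malonyl-CoA, had 26.4, 30.1, 26.96 and 37.6 CPM in the 4 controls and 40.9 to 122 CPM in restricted muscle and rose by 1.31 on the log2 scale (adjusted p = 0.0354). No restricted library reached down to a control. Elovl6, a fatty acid elongase, had 5.33, 3.78, 10.1 and 3.42 CPM in control and 7.46 to 50.6 CPM in restricted muscle, and rose by 2.28 (adjusted p = 0.0396), with control muscle 1120 inside the restricted range. Without the 2 controls Acaca was at 1.15 and Elovl6 at 2.94 (adjusted p = 0.355 and 0.236). Fasn, the fatty acid synthase, had 89.7, 60.4, 93.8 and 61.3 CPM in control and 70.7 to 543 CPM in restricted muscle, a value of 1.699 that did not pass (adjusted p = 0.0717). The desaturase Scd1 had 0.49 (adjusted p = 0.559), and 0.15 without the 2 controls. The fat cell hormones Lep and Adipoq had -2.18 and -0.47 (adjusted p = 0.0744 and 0.642). Of 18 adipocyte markers tested, 0 passed, with 0 higher and 3 lower at an unadjusted p under 0.05 (10.8% and 15.3% of all genes). Whole hindlimb holds fat cells, and their part in these values was not tested. Of 24 cholesterol synthesis genes 0 passed, with 7 higher and 2 lower at an unadjusted p under 0.05 (10.8% and 15.3% of all genes).

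Of 32 glucocorticoid response genes tested, 4 rose and 1 fell, against 0.916% and 2.05% of all genes, with a median log2 fold change of 0.48 with all controls and 0.33 without control muscles 1071 and 1120. At an unadjusted p under 0.05, 14 were higher and 2 lower with all controls (10.8% and 15.3% of all genes), and 9 and 1 without these (4.42% and 5.08%). Ddit4, an inhibitor of mTORC1, had 11.8, 22.03, 19.1 and 18.4 CPM in control and 22.3 to 87.6 CPM in restricted muscle, with no overlap, and rose by 1.69 (adjusted p = 0.0354). Klf15, a transcription factor of amino acid breakdown, had 25.3, 33.2, 43.4 and 39.1 CPM in control and 43.8 to 64.7 CPM in restricted muscle, also without overlap, and rose by 0.60 (adjusted p = 0.0459). Pik3r1, the regulatory subunit of PI3-kinase, rose by 1.08 and Errfi1, an inhibitor of EGF receptor signalling, by 0.61 (adjusted p = 0.0453 and 0.0494). Without the 2 controls Ddit4, Klf15, Pik3r1 and Errfi1 were at 1.52, 0.56, 1.002 and 0.37, and none passed after adjustment. The gene that fell was Lcn2, a neutrophil granule protein, with 16.9, 0.909, 55.99 and 0.873 CPM in control and 0.239 to 1.85 CPM in restricted muscle. Its values were high in control muscles 1071 and 1120 alone, and its log2 fold change was -4.61 with and -0.24 without them. Fkbp5 and Mt2, 2 well known glucocorticoid targets, had 0.55 and 0.84 and did not pass (adjusted p = 0.369 and 0.207).

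Of 36 genes of insulin, IGF and mTOR signalling, 3 rose and 0 fell, against 0.916% and 2.05% of all genes. They were Ddit4 and Pik3r1, which the glucocorticoid list also holds, and Grb10, an adaptor that dampens insulin receptor signalling. Grb10 had 19.4, 26.1, 16.4 and 28.3 CPM in control and 25.5 to 54.9 CPM in restricted muscle and rose by 0.65 on the log2 scale (adjusted p = 0.0473), with overlap, and was at 0.38 without control muscles 1071 and 1120. The list's median was 0.33 with all controls and 0.03 without these 2. Of 34 genes of glycolysis and glycogen, 1 rose, against 0.916% of all genes. It was Ppp1r3c, a subunit that directs protein phosphatase to glycogen, with 155, 123, 103 and 272 CPM in control and 220.3 to 648 CPM in restricted muscle (log2 fold change 1.29, adjusted p = 0.0354).

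Of 30 genes of branched-chain and other amino acid catabolism, 3 rose and 0 fell, against 0.916% and 2.05% of all genes, with a median of 0.24 in both fits. At an unadjusted p under 0.05, 10 were higher and 1 lower with all controls (10.8% and 15.3% of all genes) and 11 and 1 without control muscles 1071 and 1120 (4.42% and 5.08%). Aldh6a1, a dehydrogenase of valine breakdown, had 103, 162, 140.5 and 147 CPM in control and 198 to 266 CPM in restricted muscle, with no overlap, and rose by 0.66 (adjusted p = 0.02902). Of its reads 48.1% were unique, and 18.6% of its exon bases overlap Bbof1 on the opposite strand, which had 1.11 to 2.03 CPM in control and 1.52 to 2.73 CPM in restricted muscle. Dbt, a subunit of the branched-chain ketoacid dehydrogenase, rose by 0.50 (adjusted p = 0.0426) and Mut, the methylmalonyl-CoA mutase, by 0.50 (adjusted p = 0.0468). Without the 2 controls Aldh6a1, Dbt and Mut were at 0.50, 0.52 and 0.25.

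Of 21 circadian clock genes, 2 rose and 1 fell, against 0.916% and 2.05% of all genes. The list's median log2 fold change was 0.23 with all controls and 0.0972 without control muscles 1071 and 1120. Nr1d1, which encodes the repressor REV-ERB alpha, had 118, 113, 46.2 and 58.3 CPM in control muscles 1071, 1095, 1120 and 1121 and 26.5 to 56.04 CPM in restricted muscle. Control muscle 1120 lay inside the restricted range and the other 3 above it. Nr1d1 fell by 0.95 on the log2 scale (adjusted p = 0.04897) and was at -0.97 (adjusted p = 0.262) without control muscles 1071 and 1120. Thra, which overlaps 8.5% of its exon bases on the opposite strand, had a log2 fold change of 0.01 (adjusted p = 0.966). Nr1d2, its paralog REV-ERB beta, went the other way, from 90.7, 151, 105 and 149 CPM to 163 to 199 CPM without overlap, and rose by 0.51 (adjusted p = 0.0496). Per3, a period gene, had 10.2, 17.8, 10.9 and 30.00 CPM in control and 27.2 to 50.8 CPM in restricted muscle, with its 2 lowest values in control muscles 1071 and 1120, and rose by 1.04 (adjusted p = 0.0483; 43.5% of reads unique). Without those 2 controls Nr1d2 was at 0.23 and Per3 at 0.57 (adjusted p = 0.385 and 0.483). Per1, Per2, Dbp and Arntl had 0.80, 0.49, -0.39 and -0.45 and did not pass (adjusted p = 0.06301, 0.182, 0.2298 and 0.243). Without the 2 controls they were at 0.35, 0.22, 0.07 and -0.82, so Dbp changed sign. The sources used here do not say at what time of day tissue was collected.

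Of 35 genes of collagens and the extracellular matrix tested, 4 had a log2 fold change above 0 in each fit, and 3 fell and 0 rose, against 2.05% and 0.916% of all genes. The median log2 fold change was -0.62 with all controls and -0.56 without control muscles 1071 and 1120. At an unadjusted p under 0.05, 20 were lower and 1 higher with all controls (15.3% and 10.8% of all genes), and 19 and 0 without these (5.08% and 4.42%). The median was -0.51 for soy, -0.55 for fish and -0.68 for lard against the shared controls. Loxl1, which cross-links elastin, had 17.99, 17.3, 16.3 and 14.6 CPM in control and 6.17 to 12.6 CPM in restricted muscle, with no overlap, and fell by 0.85 (adjusted p = 0.0354). Tgfb1, a growth factor that drives matrix production, had 7.19, 5.11, 10.6 and 4.77 CPM in control and 2.35 to 4.36 CPM in restricted muscle and fell by 1.12 (adjusted p = 0.0344). Serpinh1, the collagen chaperone, which is also the 1 heat shock gene of 30 that passed, fell by 0.74 (adjusted p = 0.0344). Without the 2 controls Loxl1, Tgfb1 and Serpinh1 were at -0.80, -0.63 and -0.56. Col3a1 and Col1a1, fibrillar collagens, had -0.98 and -1.21 and did not pass (adjusted p = 0.105 and 0.1098). Col1a1 had 149, 62.9, 201 and 59.6 CPM in the 4 controls, and without control muscles 1071 and 1120 it was at -0.26 and Col3a1 at -1.22. Summed tendon and fibroblast markers ranged over 1398 to 2176 CPM in control and 921 to 2219 CPM in restricted muscle, and their part in these values was not tested. Gsn was the largest part of that sum in every library, at 950 to 1633 CPM in control and 604 to 1596 CPM in restricted muscle.

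Immune cell markers were lower in most restricted muscles. Summed macrophage markers (16 genes) ranged over 156 to 249 CPM in control and 56.99 to 218 CPM in restricted muscle, and MHC class II genes (11 genes) over 162 to 251 CPM and 38.5 to 198 CPM. Soy muscle 1073 was the highest restricted library in both. Of 15 macrophage markers tested, 4 fell, against 2.05% of all genes. Aif1, Itgam, C1qa and Cd68 fell by 1.82, 1.42, 1.17 and 1.02 on the log2 scale (adjusted p = 0.0442, 0.0442, 0.0494 and 0.0494). The list's median was -0.89 with all controls and -0.70 without control muscles 1071 and 1120. In that second fit edgeR called 0 of the markers, and 4 were lower and 0 higher at an unadjusted p under 0.05 (5.08% and 4.42% of all genes). Aif1, Itgam, C1qa and Cd68 were then at -1.43, -0.89, -0.70 and -0.57. Of 9 MHC class II genes tested, 2 fell (2.05% of all genes): Cd74, the invariant chain, by 1.47 and H2-DMb1, a peptide exchange factor, by 1.25 (adjusted p = 0.0474 and 0.0496). Their median was -1.08 with and -0.99 without these 2 controls. Ighm, the immunoglobulin M heavy chain, had 148, 132, 226 and 319 CPM in control and 30.03 to 122 CPM in restricted muscle, with no overlap, and fell by 1.63 (adjusted p = 0.0344; value -1.76 without the 2 controls). Ighm made up 60.5% to 95.6% of the summed B lymphocyte markers of a library. The other 13 of these markers summed to 28.5, 14.1, 43.1 and 14.8 CPM in control and 9.38 to 21.3 CPM in restricted muscle, with overlap. Of 14 endothelial markers 2 fell (2.05% of all genes), 5 were above 0 and the median was -0.0712. The 2 were Eng, by 0.49, and Cldn5, by 1.18 (adjusted p = 0.0358 and 0.0426). Cldn5 had 28.02, 14.2, 10.8 and 6.11 CPM in control and 4.79 to 10.4 CPM in restricted muscle, so control muscle 1121 lay in the restricted range, and without control muscles 1071 and 1120 it was at -0.64.

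Of 23 cell cycle genes 6 fell (2.05% of all genes fell), and the list's median was -0.997 with all controls and 0.10 without control muscles 1071 and 1120. With all controls 15 were lower and 0 higher at an unadjusted p under 0.05 (15.3% and 10.8% of all genes). Without those 2 controls 2 were lower and 1 higher (5.08% and 4.42%). Mki67, a marker of dividing cells, had 8.16, 0.4896, 31.9 and 0.134 CPM in control muscles 1071, 1095, 1120 and 1121 and 0.0753 to 2.02 CPM in restricted muscle. Its log2 fold change was -4.46 (adjusted p = 0.0354) with all controls and 0.55 without the 2, the libraries with the neutrophil and erythroid markers. The 2 lower genes in that second fit were Tpx2, a spindle protein, and its partner kinase Aurka. Aurka fell by 0.997 (adjusted p = 0.0413) and was at -0.57 (adjusted p = 0.5002) without the 2 controls. Tpx2 had 7.26, 7.13, 9.76 and 8.79 CPM in control and 1.65 to 4.81 CPM in restricted muscle, with no overlap, and fell by 1.42 (adjusted p = 0.0245; value -1.37 without the 2 controls). The 7 erythroid markers tested had a median of -2.33 with and 0.39 without these controls, and the 3 neutrophil markers -4.61 and -0.32. Of those 3, Mmp9 was lower at an unadjusted p under 0.05 in the second fit.

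The muscle fibre lists held no call. Of 15 fast fibre genes 0 passed by edgeR, with 1 higher and 1 lower at an unadjusted p under 0.05 (10.8% and 15.3% of all genes). Of 14 slow fibre genes 0 passed, with 0 higher and 0 lower. The fast and slow medians were -0.12 and 0.33 with all controls, and 0.13 and -0.31 without control muscles 1071 and 1120, so both changed sign. Myh4, the myosin of the fastest fibres, had 79792, 38818, 18946 and 47568 CPM in control and 26747 to 55047 CPM in restricted muscle (log2 fold change -0.12, adjusted p = 0.823). The spread among controls was wider than among the restricted libraries. Of 33 atrophy and FOXO genes 0 passed, with 7 higher and 2 lower at an unadjusted p under 0.05 (10.8% and 15.3% of all genes). The muscle ubiquitin ligases Trim63 and Fbxo32 had log2 fold changes of 0.21 and -0.04 (adjusted p = 0.488 and 0.907). Mstn, the growth inhibitor myostatin, had 0.18, and the growth factor Igf1 -0.05 (adjusted p = 0.508 and 0.9003).

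Of 74 nuclear genes of oxidative phosphorylation 0 passed, with 0 higher and 23 lower at an unadjusted p under 0.05 (10.8% and 15.3% of all genes). Without control muscles 1071 and 1120, 1 was higher and 0 lower (4.42% and 5.08%). The median went from -0.20 to 0.03. Of 43 genes of fatty acid oxidation 2 fell, against 2.05% of all genes. Acads, a short-chain dehydrogenase, fell by 0.54 (adjusted p = 0.0459), and Ucp2, an uncoupling protein also abundant in immune cells, by 1.27 (adjusted p = 0.0463). Acads was at -0.31 and Ucp2 at -0.34 without the 2 controls. Pdk4, which spares glucose in fasting, had 309, 1014, 604 and 975 CPM in control and 197 to 934 CPM in restricted muscle. It did not pass with all controls (log2 fold change -0.38, adjusted p = 0.4898) or without the 2 controls (-0.83, adjusted p = 0.519). All 10 restricted libraries lay below control muscles 1095 and 1121 for Pdk4, as for 2.99% of all genes. Of 73 cytosolic ribosomal protein genes 0 passed, with 0 higher and 1 lower at an unadjusted p under 0.05 (10.8% and 15.3% of all genes). Without the 2 controls 5 were higher and 0 lower (4.42% and 5.08%). Their median then went from -0.03 to 0.33, and the number above 0 from 31 to 73. Single genes passed in 3 further lists, where 2.05% of all genes fell. They were 1 of 14 genes of polyamine metabolism, 1 of 23 of calcium handling and 1 of 34 myogenic and growth factors. Sms, the spermine synthase, had 140.2 to 152 CPM in control and 77.8 to 134 CPM in restricted muscle without overlap and fell by 0.44 (adjusted p = 0.0442; 44.5% of reads unique). Orai1, a calcium channel of the cell surface, fell by 0.49 and Metrnl, a secreted factor of muscle and fat, by 0.96 (adjusted p = 0.0442 and 0.0459). Without the 2 controls Sms, Orai1 and Metrnl were at -0.43, -0.28 and -0.68.

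**Figure D5:**
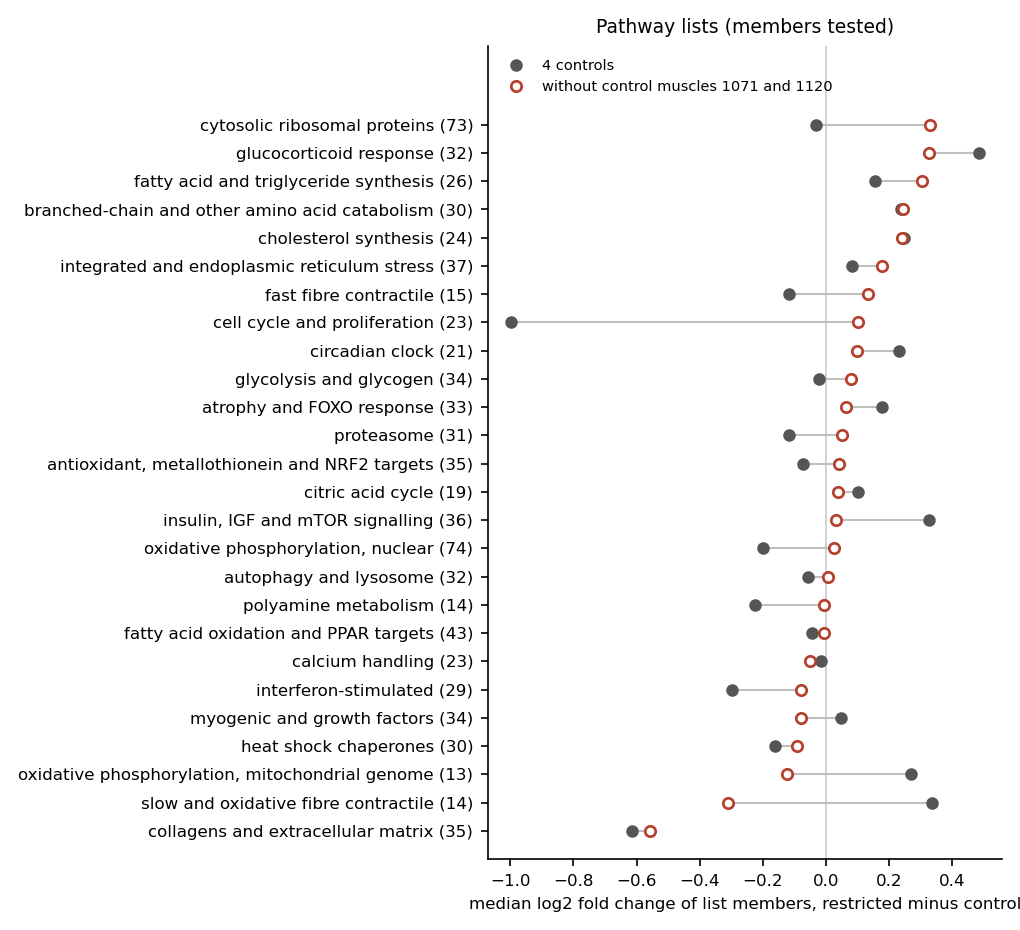
Median log2 fold change (restricted minus control) of 26 pathway lists, with all 4 controls and without control muscles 1071 and 1120. The matrix list stays at -0.62 and -0.56 and the glucocorticoid list at 0.48 and 0.33, whereas cell cycle moves from -0.997 to 0.10.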

How the data were processed

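RNA of whole hindlimb muscle was extracted with Trizol and sequenced from TruSeq libraries, per the labels' protocols. The authors deposited, per the file headers, total and unique exon read counts, gene read counts and RPKM per gene. FastQC and the build GRCm38 are named in the submitters' processing notes; for aligner, counter, annotation release and strand, none is given in the sources used here. The muscle tables were joined by gene identifier (38124 genes, 36345 matched to a GENCODE M21 symbol, 1779 not), and 13 comparisons of columns repeated between tables found 0 that differed.

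Total exon read counts were filtered with filterByExpr (minimum count 10), scaled by TMM and fitted with edgeR 4.0.16 in R 4.3.3 (quasi-likelihood test). The groups were control, soy, fish and lard, and the common biological coefficient of variation was 0.235. Restricted was the mean of soy, fish and lard weighted by their libraries in the fit (3, 3 and 4 with all libraries). P-values were adjusted over all genes tested by the Benjamini-Hochberg method. The SE of a log2 fold change is its absolute value over the root of the F statistic. The test was also run on simulated data, but the outcome is not given here and nothing is drawn from it. Unless another tool is named, adjusted p-values are edgeR's. DESeq2 1.42.0, limma-voom (limma 3.58.1), other filters, size factors, unique reads, a replicate block, a test against a 1.5-fold change, a 2-group fit and leaving out libraries were alternatives; voom with sample quality weights and 4 alternatives for the test among fats were chosen after seeing the data. Mice carry separate numbers, but litters and housing are not given; precision is limited by 4 controls.

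Named genes were those that passed with and without control muscles 1071 and 1120, filled to 8 in each direction from called genes whose restricted libraries did not overlap control muscles 1095 and 1121 (smallest p first), up to 4 called genes of each pathway list, and a list of well known genes whether or not they passed. The genes met by DESeq2 and the cell type markers are outside this rule. The comparison and the lists were chosen with earlier results of these data known. Promoter sequences are from RefSeq on GRCm38.p6.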

Additional observations from a re-analysis of the deposited data

Results flagged for a closer look

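Single libraries stood far from the others of their group in 18 of 267 group checks (Dixon's test at 95%, for which chance gives about 1 in 20). Lard muscle 1101 was the highest for the heat shock genes Hspa1b (113.2 CPM, next 10.77 in lard and 18.08 in all restricted muscle) and Hspa1a (80.44 CPM, next 11.44), near-identical genes with 32.1% and 20.3% of reads unique, and, among lard libraries, for Ppargc1a (66.07 CPM, next 46.3). Lard muscle 1102 was the highest for Fbxo32 (505.8 CPM, next 281.1 in lard and 357.3 in all restricted muscle), Dbt among lard libraries (36.27 CPM, next 29.4) and Arntl among lard libraries (6.235 CPM, next 4.325). Lard muscle 1100 was the highest lard library for Lep (23.55 CPM, next 5.789).

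Soy muscle 1073 was the highest restricted library for Ccn5 (3.766 CPM, next 2.253), Adipoq (118.4 CPM, next 56.03) and the summed tendon and fibroblast markers (2219 CPM, next 1565). Fish muscle 1124 was the highest for Mki67 (2.021 CPM, next 0.6373), Top2a (0.8983 CPM, next 0.4635) and the summed epidermis markers (355.3 CPM, next 80.29). Among controls, muscle 1121 was the highest for Foxo1 (41.81 CPM, next 19.13) and muscle 1095 the lowest for Mt2 (3.217 CPM, next 5.465).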

How the results depend on the processing

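The count of 389 genes was 1228 by DESeq2, 183 by limma-voom, 633 with no filter, 249 with a mean of at least 5 CPM, 5 in a test against a 1.5-fold change, 752 in a 2-group fit, 24 with sample quality weights, 2 without control muscles 1071 and 1120, and 3 to 1795 with 1 library left out. It was 395 with DESeq2 size factors and 398 with unique reads. The count of 2 without those controls was 79 by DESeq2, 5 by limma-voom, 7 with no filter, 1 with a mean of at least 5 CPM (Mest is below it) and 25 with sample quality weights. With 1 restricted library left out it was 2 to 7, always with Igfn1 and Mest (4 without soy muscle 1073 and 7 without lard muscle 1100). Leaving out control muscle 1121 as well kept a lone control and changed the set of genes. Log2 fold changes were then -3.28 for Igfn1, -1.70 for Mest and -3.07 for Lars2, a gene not named above. Leaving out control muscle 1095 instead also kept a lone control, with -5.37 for Igfn1, -2.88 for Mest and -3.05 for Ccn5. The count of 0 genes shared by every fat source was 58 by DESeq2 and 0 to 5 with 1 library left out, and the count of 0 genes that met all conditions was 23 by DESeq2 and 0 in every fit with 1 library left out. The causes were not tested. With the library number of the labels as a replicate block, the 389 became 8, the 2 became 0 and both counts of 0 stayed 0. Without control muscles 1071 and 1120, Igfn1 was then at -4.26 and Mest at -2.24 by edgeR (adjusted p = 0.362 for both). Deviations of libraries from their diet mean were also correlated over all genes. Of 19 same-numbered pairs 3 had a correlation above 0.1 (-0.284 to 0.247). Their median was -0.0501, against -0.00136 in 54 pairs of different numbers. Such a correlation over all genes cannot show whether libraries of the same number share an effect on some genes, which was not tested.

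Of the named genes, Myh4 changed sign by limma-voom (0.0365) and with quality weights (0.0127), Myh2 (0.0466) and Scd1 (-0.14) with quality weights, and Mki67 (0.55), Dbp (0.0730) and Myh7 (-0.42) without control muscles 1071 and 1120. With 1 library left out, log2 fold changes ranged over -0.17 to 0.0669 for Fbxo32, -0.86 to 0.11 for Hspa1a, -0.20 to 0.87 for Hspa1b, -0.15 to 0.0450 for Igf1, -0.48 to 0.12 for Myh1, -0.37 to 0.13 for Myh2, -0.38 to 0.28 for Myh4 and -0.0736 to 1.83 for Myh7. None of these 8 passed with all controls.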
